A study of Mus musculus with 73 samples.

Results

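The enhancer fragments of the mouse *Lefty1* locus were the 7 fragments whose name in the deposited table starts with Lefty1_E, out of 59 enhancer fragments of 9 loci with at least 1 measured combination. An eighth listed fragment, Lefty1_E092, occurred in no measured combination. Every combination of such a fragment with a control, 4577 in all, and every combination of 2 of them, 951 in all, was taken from the 110180 combinations of the series. The fragments were tested in a three-way reporter assay in E14tg2a, an established line of mouse embryonic stem cells (mESCs), which were transiently transfected with plasmid pools and collected after 24 hours. Each plasmid carried a promoter and a barcoded reporter, and 2 fragments cloned downstream of them, in position 1 and position 2 and each in the plus or minus orientation. A library held a single promoter, that of *Lefty1*, *Tbx3*, *Sox2*, *Fgf5*, *Nanog*, *Klf2*, *Otx2* or the housekeeping gene *Ap1m1*. All 8 libraries were transfected into the same cells, cultured in 2i+LIF medium, in 3 biological replicates on different days. Fragments sat on plasmids outside their chromosomal position, and the replicates of a library shared its plasmid pool, so the SD over n = 3 holds the spread between transfections and not that between plasmid clones.

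*Lefty1* encodes a secreted member of the TGF-beta family that antagonises Nodal signalling, and its paralogue *Lefty2* lies beside it on the same chromosome. Nodal signalling activates *Lefty* genes, which makes them feedback inhibitors of the pathway, and *Lefty1* is known as a gene expressed in mESCs. An enhancer is a stretch of DNA that raises transcription from a promoter, and several of them often lie together around genes of the pluripotency network. In mm10, the fragments Lefty1_E085 (chr1:180888586-180889035), Lefty1_E086 (chr1:180889146-180889595) and Lefty1_E087 (chr1:180889795-180890244) overlapped no gene of the RefSeq annotation of GRCm38 and were separated by 110 and 199 bp. The gap from Lefty1_E087 to *Lefty2* was 2863 bp, and that from Lefty1_E085 to *Lefty1* was 45986 bp, so these 3 fragments were nearer to *Lefty2*. Lefty1_E093 (chr1:180924673-180925122) and Lefty1_E094 (chr1:180933655-180934104) lay within the lncRNA gene Gm39715, 9899 and 917 bp from *Lefty1*. Lefty1_E095 (chr1:180936711-180937160) lay within the body of *Lefty1*, which also overlaps Gm39715. Lefty1_E096 (chr1:180945507-180945956) lay within the protein-coding gene *Tmem63a*, 7105 bp from *Lefty1*. Each listed window was 450 bp long.

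The primer pairs listed by the study for cloning these fragments are given because they define which DNA was placed beside the reporter. They are written 5′ to 3′ and wholly in lower case, since no part of them is marked.
Lefty1_E085 forward: cactcagaacattcgcagcatagaag
Lefty1_E085 reverse: gtcaatctcccagagtcgatcttcc
Lefty1_E086 forward: gctatgacctttgagtgtctgtgtatc
Lefty1_E086 reverse: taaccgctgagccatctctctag
Lefty1_E087 forward: aaacacacatatgcagtagacacacag
Lefty1_E087 reverse: taaatatgcaagagttcaccacccttg
Lefty1_E093 forward: aattgctcaaactagggttgtgtgg
Lefty1_E093 reverse: ctagtcagtgttctcctgccctc
Lefty1_E094 forward: tttcttacttagccctcatttccctcg
Lefty1_E094 reverse: cgtactgaatctgggacttggttacac
Lefty1_E095 forward: gcactgcccttatcgattctaggtatag
Lefty1_E095 reverse: tgtgtgagctccaggttccc
Lefty1_E096 forward: ctctctagcagaaggaaggaagtcc
Lefty1_E096 reverse: atcacttagggctttccagagagag

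The deposited activity of a combination is the ratio of its barcodes in cDNA over plasmid DNA. The boost index of a fragment is the log2 of its median activity over its enhancer-control (EC) combinations, relative to the median over the control-control (CC) combinations of the same library. It was calculated per replicate from 9 to 160 EC combinations per fragment and promoter, and up to 160 were possible with 20 controls, except for Lefty1_E086, Lefty1_E087 and Lefty1_E095 with *Fgf5*, which had no usable value. This left 53 fragment-promoter pairs. Of the EC combinations, 22 had an activity of 0 in some replicate, 17 of them in the *Fgf5* library, and were left out. The CC baseline rested on 219 to 477 combinations in the other libraries. In the *Fgf5* library it rested on 23, those above 0 out of 60, and the rest were left out as well. The log2 baseline of that library was thereby -2.46, -2.07 and -1.79 in the replicates, against -3.54 with the zeros kept. Numbers of reads and barcodes are not in the table, so the depth behind each value is unknown.

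Single fragments differed widely in strength. Averaged over the 7 promoters measured for all of them, the boost index was 2.66 for Lefty1_E085, 2.20 for Lefty1_E094, 1.29 for Lefty1_E093, 0.97 for Lefty1_E096, 0.92 for Lefty1_E086, 0.62 for Lefty1_E095 and 0.21 for Lefty1_E087. Among the 55 fragments of the series with these 7 values, Lefty1_E085 ranked 4 and Lefty1_E087 ranked 53. The 3 neighbouring fragments beside *Lefty2* thus held both the strongest and the weakest of the locus. The fragments of other loci nearest to Lefty1_E085 in this average were Sox2_E180 (2.66) and Otx2_E111 (2.66), and those nearest to Lefty1_E087 were Nodal_E157 (0.20) and Pou5f1_E079 (0.22). Sox2_E180 came to this average with a different spread over promoters, with a boost index of 4.70 with *Lefty1* and 0.25 with *Ap1m1*.

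At a 1% FDR, 47 of the 53 pairs were higher than the CC combinations and 0 were lower (two-sided exact rank-sum test, Benjamini-Hochberg over all 448 enhancer-promoter pairs). Over the whole table, 88.2% of pairs were called higher and 1.79% lower, so the share of the locus was near the background. By the moderated limma test of the 3 replicates, 45 pairs were higher and 0 lower, among them Lefty1_E087 with *Lefty1* (adjusted p = 0.0118) and *Tbx3* (adjusted p = 0.0237). The shares above are those of the rank-sum test, and none is given for the limma test. The 6 pairs not called by the rank-sum test were Lefty1_E087 with *Lefty1*, *Tbx3*, *Nanog*, *Otx2* and *Ap1m1*, and Lefty1_E096 with *Fgf5*.

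Lefty1_E085 raised the activity of every promoter. With the *Lefty1* promoter its boost index was 4.63, 4.47 and 4.57 in replicates 1, 2 and 3, a mean of 4.56 ± 0.08 (SD, n = 3) or 23.5-fold over the controls. With *Tbx3* it was 4.38, 4.07 and 3.49, and with *Sox2* 4.00, 3.66 and 3.75. All replicates with these 3 promoters lay above those with the remaining promoters, apart from replicate 1 of *Fgf5* at 3.67, which was above the lowest replicate of *Tbx3* and that of *Sox2*.
With *Fgf5* the other replicates were at 3.08 and 2.81. The means were 2.00 ± 0.17 with *Nanog*, 1.79 ± 0.03 with *Klf2* and 1.75 ± 0.22 with *Otx2* (SD, n = 3), and 0.76 ± 0.11 (SD, n = 3) or 1.69-fold with *Ap1m1*. In every library Lefty1_E085 ranked between 5 and 9 of the 49 to 58 fragments measured there.

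The difference of 3.80 for Lefty1_E085 between *Lefty1* and *Ap1m1* had an adjusted p of 2.72e-12 in the moderated limma test. Of the 28 differences between promoters, 24 passed a 5% FDR. The difference of *Sox2* and *Tbx3* was not called (adjusted p = 0.460), nor were those among *Klf2*, *Nanog* and *Otx2* (adjusted p from 0.296 to 0.873). *Lefty1* exceeded *Tbx3* by 0.57 (SE 0.20, adjusted p = 0.0161). A second calculation, chosen after the data were seen, added the spread between EC combinations and that between CC combinations to the error. It left 22 of the 28, and the differences of *Fgf5* to *Sox2* (adjusted p = 0.154) and to *Tbx3* (adjusted p = 0.0575) were no longer called.

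Lefty1_E094, 497 bp from the listed *Lefty1* promoter fragment, was likewise highest with *Lefty1* and lowest with *Ap1m1*, over a smaller range. With *Lefty1* its boost index was 3.34, 3.40 and 3.24 (mean 3.33 ± 0.08, SD, n = 3), or 10.0-fold. With *Sox2* it was 3.19, 3.20 and 2.87, and with *Tbx3* 3.26, 3.25 and 2.29. Its mean with *Lefty1* was higher than that with *Sox2* by 0.24 (SE 0.24, adjusted p = 0.411) and than that with *Tbx3* by 0.39 (SE 0.24, adjusted p = 0.171), and neither difference was called by the moderated limma test. With *Ap1m1* the replicates were between 0.93 and 1.103, above all replicates of Lefty1_E085 with that promoter, and Lefty1_E094 ranked 2 of 57 fragments there, against 11 of 57 with *Lefty1*. Its largest difference between promoters, from *Ap1m1* to *Lefty1*, was 2.31 log2 units, and 18 of 28 differences were called, also with the spread between combinations counted.

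Lefty1_E093 stood apart through its replicates. With *Lefty1* its boost index was 3.24 in replicate 1 but 2.04 and 2.33 in replicates 2 and 3. With *Sox2* it was 2.94, 2.02 and 2.12, and with *Tbx3* 2.83, 1.77 and 1.12. With *Fgf5*, over 13 EC combinations, it was 3.11, 0.72 and 0.46.
Replicate 1 was the highest in all 8 libraries, and the *Fgf5* replicates were more than 2 log2 units apart. With *Nanog* the replicates were at 1.02, 0.67 and 0.55, with *Klf2* at 0.93, 0.44 and 0.55, with *Otx2* at 0.86, 0.22 and 0.49, and with *Ap1m1* at 0.39, 0.31 and 0.28. Without replicate 1, the boost index recalculated from the geometric mean of the other replicates was 2.22 with *Lefty1*, 2.07 with *Sox2* and 1.49 with *Tbx3*, all still called. It was 0.50 with *Fgf5*, which was no longer called (FDR 0.202, exact rank-sum test). By the moderated limma test of the 3 replicates, Lefty1_E093 was also not called with *Nanog*, *Klf2*, *Otx2* and *Ap1m1* (adjusted p from 0.0526 to 0.376). Of its differences between promoters, 11 of 28 were called, also with the spread between combinations counted, and each of the 11 set *Lefty1*, *Sox2* or *Tbx3* above *Nanog*, *Klf2*, *Otx2* or *Ap1m1*.

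Lefty1_E096 was a fragment of moderate strength on most promoters. With *Lefty1* it reached 1.21, 1.32 and 1.55, with *Tbx3* 1.59, 1.54 and 1.30 and with *Sox2* 1.28, 1.21 and 1.35. All of these values were above those with the other promoters, the highest of which was 0.84 in a replicate of *Klf2*. The means with *Nanog*, *Klf2*, *Otx2* and *Ap1m1* lay between 0.63 and 0.76. Its value with *Fgf5*, 0.44, 0.26 and -0.16, was not called (FDR 0.361, exact rank-sum test). Keeping the *Fgf5* combinations at 0, which lowered the baseline of that library to -3.54 (log2), raised the mean over replicates to 1.52 and the value from the geometric mean of the replicates to 2.64, and the pair was then called. The same setting raised Lefty1_E085 with *Fgf5* to 4.61 and Lefty1_E094 to 3.41, so levels with this promoter rest on how the zeros are treated.

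Lefty1_E086 and Lefty1_E095 gave smaller boost indices. Those of Lefty1_E086 ranged from 0.64 ± 0.19 (SD, n = 3) with *Nanog* to 1.33 ± 0.14 (SD, n = 3) with *Lefty1*, over 9 to 30 EC combinations. Those of Lefty1_E095 ranged from 0.52 ± 0.12 (SD, n = 3) with *Nanog* to 0.72 ± 0.06 (SD, n = 3) with *Lefty1*, over 50 to 96 EC combinations. With *Lefty1*, the replicates of Lefty1_E095 were at 0.79, 0.71 and 0.67, and with *Ap1m1* at 0.53, 0.63 and 0.64, close to each other. Lefty1_E095 ranked 47 of 57 with *Lefty1* and 21 of 57 with *Ap1m1*, and Lefty1_E086 ranked 32 and 12.
Lefty1_E087 was near the controls. Its replicates with *Lefty1* were at 0.15, 0.32 and 0.29, and with *Ap1m1* at -0.027, 0.022 and 0.026. It was called with *Sox2* (0.29, 0.51 and 0.76, FDR 0.000854) and with *Klf2* (0.16, 0.26 and 0.32, FDR 0.00852, both exact rank-sum test). Without replicate 2, neither of these was called (FDR 0.0138 with *Sox2* and 0.0117 with *Klf2*), nor was *Klf2* without replicate 3 (FDR 0.0271).

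The moderated limma F test called 6 of the 7 fragments as differing between promoters at a 5% FDR, where 96.6% of the 58 fragments tested were called. Lefty1_E095 was the exception (F 0.893, adjusted p = 0.529). With the spread between combinations counted, Lefty1_E085, Lefty1_E093, Lefty1_E094 and Lefty1_E096 were called, whereas Lefty1_E086 (adjusted p = 0.104) and Lefty1_E087 (adjusted p = 0.426) were not, and 87.9% of all fragments were called. Over the 7 fragments, 87 of 175 differences between promoters were called, against 59.8% of all such differences. With the spread between combinations counted these were 66, against 44.9%.

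The median boost index of the locus was set against that of the other fragments within each library. It was farthest above it with *Fgf5*, at 1.71 over 4 fragments of the locus against 0.10 over 45 of other loci. These 4, Lefty1_E085, Lefty1_E094, Lefty1_E093 and Lefty1_E096, had the highest averages of the locus over the other promoters. The *Fgf5* median of the locus thus left out its weaker fragments. With the *Lefty1* promoter the median of the locus was 1.36 over 7 fragments, against 1.47 over 50 fragments of other loci. With *Sox2* it was 1.28 against 1.67, with *Nanog* 0.64 against 0.88 and with *Ap1m1* 0.66 against 0.41. With *Tbx3* (1.47 against 1.41), *Klf2* (0.74 against 0.73) and *Otx2* (0.66 against 0.72) the medians were nearer to each other. The mean difference over the 8 libraries was 0.13 ± 0.11 (SD, n = 3). Without the *Fgf5* library it was -0.064 ± 0.017 (SD, n = 3), so its sign rested on that library.

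Averaged over promoters, position 2 minus position 1 was 0.28 (SE 0.03) for Lefty1_E095, which was higher in position 2 with each of its 7 promoters and whose boost index had a range of 0.20 over promoters. It was -0.23 (SE 0.04) for Lefty1_E093, which was higher in position 1 with 7 of 8 promoters. The moderated limma test called these and Lefty1_E086 (0.23), Lefty1_E094 (0.13) and Lefty1_E096 (0.11), 5 of 7 fragments, against 73.2% of all 56 fragments tested.
Replicates share plasmids, so this test was repeated with each promoter library as 1 value, a test added once the data were known. Of the fragments, 2 of 7 were then called, Lefty1_E093 (adjusted p = 0.0116) and Lefty1_E095 (adjusted p = 0.00120), against 44.6% of all. The orientations were unequally cloned. Of the EC combinations of Lefty1_E094 in position 1, 286 were in minus and 45 in plus orientation, and those of Lefty1_E095 were 158 and 42, against 48 and 240 in position 2. Position differences were also taken within each orientation, then averaged over the orientations and over libraries. They were -0.38 for Lefty1_E093, 0.47 for Lefty1_E095 and 0.19 for Lefty1_E094, which was then also called (adjusted p = 0.0229), against 41.1% of all. Some of these rest on few combinations. Lefty1_E095 in plus orientation in position 1 had 2 with *Nanog* and 4 with *Tbx3*, where its differences within orientations were 0.66 and 0.88. For Lefty1_E093 with *Fgf5* the difference was -0.75 ± 1.06 (SD, n = 3). In minus orientation, Lefty1_E093 was higher in position 2 with *Klf2*, *Otx2* and *Ap1m1* and higher in position 1 with *Lefty1*, *Tbx3*, *Sox2* and *Nanog*.

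Averaged over the positions, Lefty1_E085 was more active in minus orientation with every promoter. The average of plus minus minus was -0.23 (SE 0.02), and the values per promoter lay between -0.29 and -0.17. Position 1 with *Fgf5* was an exception, at 3.35 in plus over 20 combinations and 3.27 in minus over 10. With *Lefty1* the differences of the replicates were -0.29, -0.22 and -0.15, and with *Tbx3* -0.32, -0.22 and -0.33. The same sign was found for Lefty1_E093 (-0.28), Lefty1_E095 (-0.22) and Lefty1_E096 (-0.095), so 4 of 7 fragments were called, against 73.2% of all 56 fragments. With each library as 1 value, all 4 were still called, against 57.1% of all fragments. Lefty1_E095 was not called without replicate 1 (adjusted p = 0.0794), with at least 5 combinations behind a value (-0.13, adjusted p = 0.109) or without the controls shuffled from E95 (-0.072, adjusted p = 0.232, moderated limma test). Lefty1_E093 was not called without replicate 2 (adjusted p = 0.137). The averages of Lefty1_E086 (-0.024), Lefty1_E087 (-0.018) and Lefty1_E094 (-0.023) were not called.
For Lefty1_E093, the lowest of its 4 placements was plus in position 2. With *Lefty1* its boost index was 1.88 there, against 2.75 for plus in position 1, 2.73 for minus in position 1 and 2.54 for minus in position 2. With *Klf2* these were 0.12, 0.73, 0.70 and 0.83, and with *Ap1m1* -0.027, 0.27, 0.26 and 0.56.

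Pairs of fragments of the locus were set against the additive expectation, which is the sum of both single-fragment activities in the same positions minus the baseline. Of 21 possible pairs, 20 occurred and 18 were averaged over 7 or 8 promoters, each from up to 8 combinations per library. No combination of a fragment with itself occurred. The log2 ratio of observed over expected activity was above 0 for 14 of the 18 averages, with a median of 0.23, against 0.14 over all 1364 pairs of the table. The moderated limma test called all 14 above and the other 4 below the expectation at a 5% FDR, where 60.5% of all pairs were called above and 18.7% below. With each library as 1 value, 10 were above and 2 below, against 22.2% and 8.94% of all pairs.

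The pair of the neighbours Lefty1_E085 and Lefty1_E086 had the highest average, 0.39 (SE 0.03, adjusted p = 3.54e-10, 0.0146 with libraries as units). With the *Lefty1* promoter, its observed over expected value was 0.66, 0.66 and 0.68 in the 3 replicates. The observed boost index was 5.31 ± 0.07 (SD, n = 3) and the expected one 4.66 ± 0.05 (SD, n = 3), over 8 combinations. The value was of similar size with *Tbx3* (0.69 ± 0.04) and *Sox2* (0.61 ± 0.13) and smaller with *Nanog* (0.33 ± 0.23), *Klf2* (0.26 ± 0.12), *Otx2* (0.14 ± 0.06) and *Ap1m1* (0.062 ± 0.061, SD, n = 3 each). All 7 values were above 0. The single combination of the locus with the highest boost index in the *Lefty1* library was of this pair, Lefty1_E085 in position 1 and Lefty1_E086 in position 2, both in minus orientation, at 5.82, 5.77 and 5.86, or 56.4-fold over the controls.
Lefty1_E086 also exceeded the expectation with Lefty1_E094 (0.38, SE 0.03), Lefty1_E096 (0.36, SE 0.03) and Lefty1_E095 (0.30, SE 0.06), and these 3 pairs were called with libraries as units (adjusted p = 0.0120, 0.0164 and 0.0336). Its single-fragment values, which enter each expectation, rest on 4 to 17 EC combinations per position and promoter. With fragments of other loci, its median of observed over expected was 0.17 over 1054 combinations. This is a median over pooled combinations and not an average over promoters like the values of the pairs.

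Pairs with Lefty1_E094 and Lefty1_E095 were mostly above the expectation as well. The pair of these fragments had an average of 0.38 (SE 0.02, adjusted p = 1.79e-10, 0.00354 with libraries as units) and was above 0 with each of 7 promoters, between 0.24 with *Ap1m1* and 0.61 with *Tbx3*. Lefty1_E094 with Lefty1_E096 had an average of 0.31 (SE 0.02), from 0.041 with *Nanog* to 0.67 with *Fgf5*. Lefty1_E095 with Lefty1_E093 reached 0.23 (SE 0.03), and with Lefty1_E087 0.23 (SE 0.05), over 3 to 5 combinations per promoter. All of these were called with libraries as units (adjusted p from 0.00354 to 0.0318).
The 2 strongest fragments together, Lefty1_E085 and Lefty1_E094, gave the highest observed boost index of the 18 averages, 3.60, against 3.35 expected. With the *Lefty1* promoter, the pair was observed at 5.57 ± 0.05 and expected at 5.03 ± 0.05 (SD, n = 3), which is 0.98 above the stronger fragment alone. The observed over expected values were 0.47, 0.54 and 0.54 with *Lefty1* and 0.55, 0.51 and 0.70 with *Tbx3*. They were between 0.013 and 0.085 on average with *Nanog*, *Klf2*, *Ap1m1* and *Otx2*, within the spread of replicates for each of these promoters. The average of 0.27 (SE 0.02) was called with libraries as units (adjusted p = 0.0373).

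The pair of Lefty1_E085 and Lefty1_E093 was the lowest of the locus. Its average was -0.27 (SE 0.02, adjusted p = 1.31e-09, 0.0146 with libraries as units), and it was below 0 with each of 8 promoters. With *Nanog* the replicates were at -0.65, -0.52 and -0.40, with *Klf2* at -0.45, -0.50 and -0.50 and with *Lefty1* at -0.28, -0.28 and -0.30. With *Sox2* (-0.032 ± 0.066) and *Fgf5* (-0.11 ± 0.21, SD, n = 3 each), the value was within the spread of the replicates. The part in this result of the higher single values of Lefty1_E093 in replicate 1 was not tested, and the average without that replicate was -0.25. The pair was no more active than its stronger fragment alone on average (-0.025, SE 0.026, adjusted p = 0.389). With *Lefty1* it had a boost index of 4.55 ± 0.19 (SD, n = 3), beside 4.56 for Lefty1_E085 with controls.
The remaining pairs below the expectation all held Lefty1_E087, the weakest fragment. Its average was -0.19 (SE 0.03) with Lefty1_E096, below 0 with each of 7 promoters, and this pair was called with libraries as units (adjusted p = 0.0233). With Lefty1_E094 it was -0.15 (SE 0.02, adjusted p = 0.0535 with libraries as units), also below 0 with each of 7 promoters. The third such pair, with Lefty1_E085, was not called with libraries as units (adjusted p = 0.0948). The other 5 averages of the locus lay between 0.06 and 0.22, all called above the expectation, and 1 of them, Lefty1_E085 with Lefty1_E095, also with libraries as units (adjusted p = 0.0210).

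Against the stronger of both single fragments, 14 of the 18 pairs were higher by the moderated limma test, where 79.3% of all pairs were, and the same 14 with libraries as units, against 67.5%. The gain was largest for Lefty1_E085 with Lefty1_E094, 0.81 (SE 0.02), and smallest among the called ones for Lefty1_E085 with Lefty1_E096, 0.25 (SE 0.02). The 4 others were Lefty1_E085 with Lefty1_E093 and the 3 pairs of Lefty1_E087 with Lefty1_E085, Lefty1_E094 and Lefty1_E096, with averages between -0.12 and -0.025. The 3 pairs of Lefty1_E087 were called lower than their stronger fragment by the moderated limma test, but not with libraries as units (adjusted p from 0.0621 to 0.186). How many of all pairs were called lower than their stronger fragment is not given here. The multiplicative expectation is the product of both activities over the baseline. Against it, 1 pair was called above and 13 below, and the median of the 18 averages was -0.30. The shares of all pairs called against this expectation are not given here, so these counts have no background beside them. The lowest averages were -1.33 for Lefty1_E085 with Lefty1_E093 and -1.31 for Lefty1_E085 with Lefty1_E094.

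The deviation from additivity followed the promoter. Over all combinations of 2 fragments of the locus, the median of observed over expected was 0.36 ± 0.04 with *Tbx3*, 0.35 ± 0.23 with *Fgf5*, 0.29 ± 0.02 with *Lefty1* and 0.22 ± 0.03 with *Sox2* (SD, n = 3). It was 0.032 ± 0.056 with *Nanog*, 0.027 ± 0.053 with *Klf2*, 0.042 ± 0.041 with *Otx2* and 0.023 ± 0.030 with *Ap1m1* (SD, n = 3). The share of combinations above the expectation ran from 55.6% with *Klf2* to 79.5% with *Fgf5*. The expectation subtracts the baseline, which in the *Fgf5* library rested on the 23 of 60 CC combinations above 0. The part of this in the *Fgf5* values was not tested. Combinations with a fragment of another locus gave nearly the same medians, 0.32 with *Tbx3*, 0.29 with *Lefty1* and 0.20 with *Sox2*, but 0.52 with *Fgf5*. The difference between same-locus and other-locus combinations, averaged over 8 libraries, was -0.00135 ± 0.0141 (SD, n = 3), smaller than the spread between replicates. Without the *Fgf5* library, whose same-locus value rests on 44 combinations, it was 0.0222 ± 0.000592 (SD, n = 3).
Partners from other loci were ranked by the median of observed over expected over pooled combinations. The highest were Nodal_E156 (0.32), Otx2_E114 (0.31) and Tbx3_E203 (0.30). By the average over promoters, Otx2_E114 (0.33) was not among the 3 highest. Values of these partners with fragments outside the *Lefty1* locus are not given here. The lowest medians were those of Pou5f1_E084 (-0.24), Nodal_E159 (-0.16) and Klf2_E058 (-0.15), each over 309 to 353 combinations. With partners of other loci, the medians of Lefty1_E095 (0.23) and Lefty1_E094 (0.18) were the highest of the locus and that of Lefty1_E087 (-0.075) the lowest.

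For 18 pairs, combinations with the fragment of lower number in position 1 were compared with those in the reverse order, each against its own expectation. The average difference ranged from -0.14 for Lefty1_E085 with Lefty1_E093 to 0.33 for Lefty1_E086 with Lefty1_E095, the latter over 3 promoters only. The difference for Lefty1_E093 with Lefty1_E096, 0.25 ± 0.07 (SD, n = 3), was above 0 with each of 8 promoters, so the ratio of this pair was higher with Lefty1_E093 in position 1. The difference for Lefty1_E085 with Lefty1_E094, 0.18 ± 0.05 (SD, n = 3), was also above 0 with each of 8 promoters. That for Lefty1_E085 with Lefty1_E093 was below 0 with each of 8 promoters, so its shortfall was larger with Lefty1_E085 in position 1. The single values in each expectation were pooled over orientations. For Lefty1_E093 they held 176 EC combinations in plus and 103 in minus orientation in position 1, against 96 and 169 in position 2. The part of this in the differences was not tested, and the differences themselves were not tested either.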

How the data were processed

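Activities of 8 promoter libraries were measured in E14tg2a cells in 3 biological replicates, each sequenced 2 times as cDNA (48 cDNA, 16 plasmid DNA and 9 inverse PCR samples). The authors assigned barcodes to fragments with Bowtie2, clustered and counted barcodes, normalised counts to the total of each sample and averaged the cDNA to plasmid DNA ratio over the barcodes of a combination. The deposited table holds this ratio per replicate. Its columns of the authors' own averages, baselines, boost indices and expected activities were not used, and 0 columns of other samples were found. From the activities, baselines (median of CC combinations above 0), boost indices and expectations were recalculated per replicate in Python 3.11.15 (numba 0.67.0, scipy 1.17.1, pandas 2.3.3 and numpy 2.4.6), and printed values are means over replicates. A value needed 2 combinations and an average over promoters 4 promoters.

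Single fragments were tested by an exact rank-sum test (1% FDR), and promoters, positions, orientations and pairs by moderated tests in limma 3.58.1 (R 4.3.3), fitted on all fragments or pairs of the table with Benjamini-Hochberg adjustment (5% FDR). Since replicates share plasmid pools, these p-values cover only the spread between transfections, and on simulated data with noise shared between replicates the moderated tests also called fragments and pairs made without a difference. Tests with each library as 1 value, and tests counting the spread between combinations, were therefore added after the data were seen, as was the position difference within each orientation. The rank-sum test treats combinations that share controls as independent.

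All fragments of the locus are named. Of the pairs, the called ones with the 10 largest deviations and the 3 highest and 3 lowest are given in full. Of other loci, the 3 highest and 3 lowest partners and the fragments nearest to the strongest and the weakest are named. Pairs and placements named beyond this rule were chosen after their values were seen. Members, lists and tests were chosen with earlier results of these data known. Coordinates and primers come from supplementary files of the study (mm10), matched by number for all 7 fragments, and genes from RefSeq GRCm38.p6. Sequencing reads were not analysed here.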

Additional observations from a re-analysis of the deposited data

Results flagged for a closer look

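The difference between position 2 and position 1 varied between promoters for 5 fragments of the locus (moderated F test in limma, Benjamini-Hochberg over all fragments), and 59.6% of the 57 fragments tested did so. The adjusted p was 8.72e-05 for Lefty1_E085, 0.00942 for Lefty1_E094, 0.0248 for Lefty1_E096, 0.0333 for Lefty1_E086 and 0.0492 for Lefty1_E093. With *Ap1m1*, position 2 exceeded position 1 by 0.37 ± 0.04 for Lefty1_E085, 0.35 ± 0.02 for Lefty1_E094 and 0.30 ± 0.01 for Lefty1_E096 (SD, n = 3). With *Sox2*, the same differences were -0.20 ± 0.04, -0.068 ± 0.055 and -0.065 ± 0.099 (SD, n = 3). Over all fragments, the median difference was 0.15 with *Ap1m1*, where 44 of 55 fragments were above 0, and -0.18 with *Sox2*, where 17 of 54 were.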

How the results depend on the processing

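With each replicate left out in turn, 45 to 46 of 53 fragment-promoter pairs were called higher than controls and 0 lower. The counts called were 5 to 6 fragments and 66 to 88 differences between promoters, 4 to 5 fragments between positions and 3 to 4 between orientations. Of the pairs, 12 to 14 were above and 4 below the additive expectation, and 14 above the stronger fragment. Shares over all fragments and pairs with a replicate left out are not given here. With the replicate number as a block in the limma fit, 93 differences between promoters were called, the 87 called without it and 6 more, 5 of Lefty1_E093 and 1 of Lefty1_E094. Those of Lefty1_E094 between *Lefty1* and *Sox2* (adjusted p = 0.297) or *Tbx3* (adjusted p = 0.0865) were not among them. The other counts were 6, 5, 4, 14, 4 and 14, as without it. Between libraries, the deviations of replicates with one number had a mean correlation of 0.36 over 84 pairs, of which 73 were above 0.1, against -0.18 over 168 pairs of different numbers. Of 24 library replicates, 23 were closest to their own number.

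With libraries as units, 2 fragments differed between positions (3 within each orientation), 10 pairs were above and 2 below the expectation. Under the multiplicative expectation, 1 pair was above and 13 below, without a share over all pairs beside them. The same-locus minus other-locus difference was then -0.082. Without the *Fgf5* library, that difference was 0.022, and the difference in boost index to other loci was -0.064. Self-pairs were not measured for the locus, so leaving them out changed nothing.

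Signs turned for values near 0. The turned values up to the multiplicative expectation were not called, and neither were the original ones. For Lefty1_E087 with *Nanog*, the boost index was -0.14 to 0.20 without a replicate, -0.023 with mean log2 values and -0.0044 without the controls shuffled from E95. With *Ap1m1* it was -0.11 to 0.069 without a replicate and -0.040 with mean log2 values. Lefty1_E096 with *Fgf5* was at -0.0052 to 0.42 without a replicate. The position difference of Lefty1_E085 was -0.024 to 0.039 without a replicate, -0.028 without the shuffled E95 controls and -0.033 within each orientation, but was called at 0.087 with mean log2 values (adjusted p = 3.58e-05) and at 0.045 without the *Fgf5* library (adjusted p = 0.00880), where 6 fragments were called. That of Lefty1_E087 was -0.12 to 0.013 without a replicate and 0.032 with mean log2 values. Orientation differences turned for Lefty1_E087 (-0.060 to 0.023 without a replicate, 0.074 with mean log2 values), Lefty1_E086 (-0.086 to 0.017 without a replicate, 0.030 without the shuffled E95 controls) and Lefty1_E094 (-0.056 to 0.021 without a replicate, 0.0026 with at least 5 combinations). Lefty1_E085 with Lefty1_E093 differed from the stronger fragment by -0.070 to 0.023 without a replicate and by 0.018 with mean log2 values, and was called lower without the *Fgf5* library (-0.046, adjusted p = 0.0489). Under the multiplicative expectation, Lefty1_E085 turned to -0.36 with Lefty1_E086, -1.31 with Lefty1_E094, -0.21 with Lefty1_E095 and -0.64 with Lefty1_E096. Lefty1_E086 turned to -0.24 with Lefty1_E094 and -0.018 with Lefty1_E096, Lefty1_E093 to -0.85 with Lefty1_E094, -0.070 with Lefty1_E095 and -0.39 with Lefty1_E096, Lefty1_E094 with Lefty1_E096 to -0.30 and Lefty1_E095 with Lefty1_E096 to -0.12. All 11 had been called above the additive expectation, and 9 of them were called below the multiplicative one, which is higher by construction.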

Other observations

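The rise of Lefty1_E093 in replicate 1 was set beside all fragments, a comparison chosen after its values were seen and not tested. Averaged over promoters, the boost index in replicate 1 minus the mean of replicates 2 and 3 was 0.91 for Lefty1_E093, or 1.88-fold, the highest of 57 fragments. The next were Klf2_E057 at 0.25 and Nanog_E090 at 0.24, and the lowest was Nanog_E071 at -0.16. Replicate 1 was the highest in 8 of 8 libraries for Lefty1_E093, and in 4 of 8 for Klf2_E057. The difference was 1.06 with *Lefty1*, where the median over all fragments was -0.090, and 0.50 with *Otx2*, where it was -0.049. It was 2.52 with *Fgf5*, 1.38 with *Tbx3* and 0.87 with *Sox2*, where the medians over all fragments were 0.51, 0.21 and 0.10. It was 0.43 with *Klf2*, 0.41 with *Nanog* and 0.087 with *Ap1m1*, where these medians were -0.047, -0.10 and -0.030.

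Enhancer-enhancer combinations, which are other plasmids than those with controls, showed the same direction. With the *Lefty1* promoter, the median difference was 0.61 over 314 combinations with Lefty1_E093 and -0.12 over 9309 without it, and with *Sox2* 0.72 over 218 and 0.12 over 6765. The median with Lefty1_E093 was above that without it in all 8 libraries. Among pairs of the locus measured with at least 40 combinations, it was 0.58 with Lefty1_E096, 0.48 with Lefty1_E094, 0.40 with Lefty1_E095 and 0.20 with Lefty1_E085. The labels give the replicates as separate biological replicates, and what differed between their days was not tested.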
